A study of Macaca fascicularis with 2 samples.

Results

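BMP2-high chondrocyte-like cells were 989 single cells of cynomolgus monkey articular cartilage (AC) and nucleus pulposus (NP) in which *BMP2* took at least 1000 of every 1000000 reads of the cell (rpm below stands for reads per 1000000 reads). They were chosen among cells that carried 1 of 4 sample tags, had fewer than 5 reads of *KRT19*, a marker of notochordal NP cells (NCs), and had *CILP*, a gene of the intermediate zone of cartilage and of fibrocartilage, below 100 rpm. These limits were met by 3919 of 5674 tagged cells, so that members made up 25.2% of the cells within the limits (95% CI 23.9 to 26.6, exact binomial interval) and 17.4% of all tagged cells (16.5 to 18.4). The cells were thus chosen by their measured *BMP2*, *KRT19* and *CILP* reads, and these levels are given as a description only. Members were described against cells within the same limits with *BMP2* below 100 rpm, of which there were 1568.

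The study sequenced single cells of AC and NP by TAS-seq, in which poly(A) RNA of each cell is captured on a barcoded bead and amplified. All animals were male wild-type monkeys, 3 years old and untreated as far as the labels state, with AC taken from the femoral condyle and NP from the L3/4 disc. The sample labels list 3 tissues, AC and NP of 1 monkey and AC of another, in 1 pooled library, whereas the cells carried 4 tags (A951, A952, A953 and A954) that no source used here pairs with tissues. Tissues were digested with collagenase-type enzymes, and live tagged cells were sorted before capture. There was 1 library and no replicate library, so no test was made. The 4 tags served to pair cells, to show how far a difference recurred and to choose the genes named. The named higher and lower genes therefore have the same sign under each tag by choice.

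*BMP2* encodes bone morphogenetic protein 2, a secreted ligand of the TGF-β superfamily. BMP ligands bind type I and type II serine/threonine kinase receptors, which phosphorylate SMAD1, SMAD5 and SMAD9, and these enter the nucleus with SMAD4 and induce targets such as the *ID* genes, while secreted antagonists such as chordin and gremlin hold the ligand away from its receptors. In cartilage, BMP signaling is known for driving chondrogenesis, matrix synthesis and, in the growth plate, chondrocyte maturation, and *BMP2* is known to be induced in chondrocytes by inflammatory cytokines.

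*BMP2* varied continuously among the cells within the limits, as the plot of *BMP2* by tag shows. The lowest member held 1000.4 rpm and the highest cell below the limit 999.5 rpm, with 76 members within 10% above the limit and 75 cells within 10% below it, so the limit cuts through a range and does not separate a cell type. Members had a median of 2084 rpm (quartiles 1383 and 3363 rpm, highest 17790 rpm), or 417 reads, and 104 of them reached 5000 rpm. Of the 1568 BMP2-low cells, 527 had no read of *BMP2*, and the remaining 1362 cells lay between the limits. Members made up 29.7% of the cells within the limits under A951 (226 of 762, CI 26.4 to 33.0), 28.2% under A952 (200 of 708, 24.96 to 31.7), 22.9% under A953 (214 of 934, 20.3 to 25.7) and 23.0% under A954 (349 of 1515, 20.9 to 25.2). The share was thus higher under A951 and A952, the tags that also carried most of the cells left out for *KRT19* (76 and 271 cells, against 6 and 10 under A953 and A954). Among the left-out cells, *BMP2* reached 1000 rpm in 5 of 363 cells with 5 or more *KRT19* reads (1.38%, CI 0.449 to 3.18) and in 171 of 1392 cells with *CILP* at 100 rpm or more (12.3%, CI 10.6 to 14.1).

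**Figure D1:**
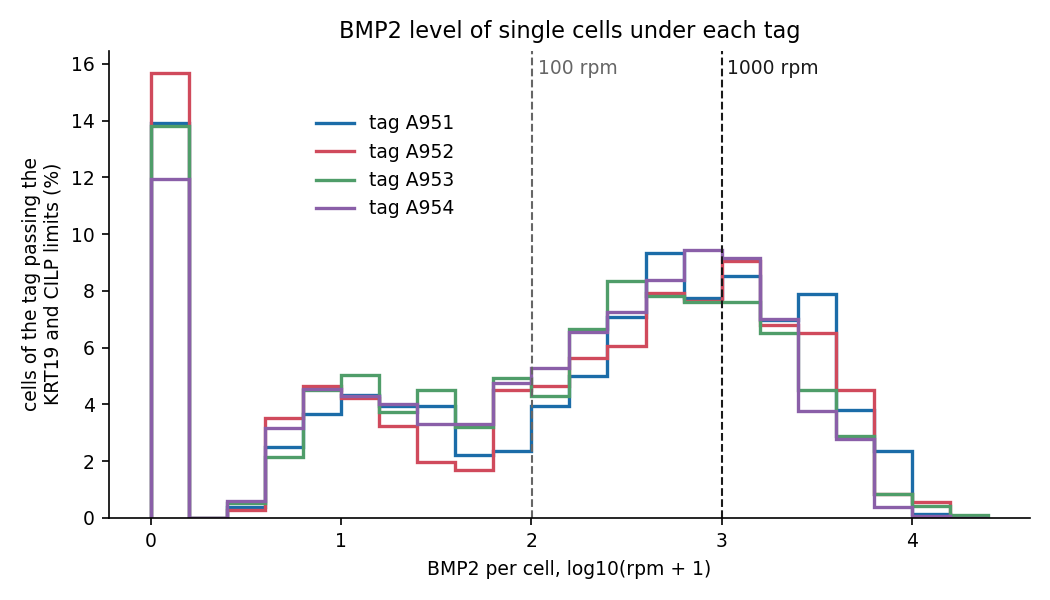
Histogram of *BMP2* per cell, as log10(rpm + 1), in the 3919 cells within the *KRT19* and *CILP* limits, with the percentage of each tag's cells on the vertical axis. The dashed lines mark 100 and 1000 rpm. The 4 tags had similar distributions, with a peak at 0 reads and a broad mode. The highest bin of this mode lay below the 1000 rpm limit under A951, A953 and A954 and just above it under A952.

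Beside BMP2-low cells of like depth, members held more *MMP3*, *INHBA*, *FGF2* and *CD55* and more often expressed inflammatory genes such as *NOS2* and *ICAM1*. They held less *FOS*, *ID1*, *NR1D1*, *CRTAC1* and type I collagen, and nearly the same amount of *COL2A1* and *ACAN*. Members were paired 1 to 1 with BMP2-low cells of the same tag, called partners here, on the number of genes detected, which gave 984 pairs. The 5 members without a partner had 923, 7630, 7773, 7852 and 8316 genes detected. Paired members and partners had medians of 3659 and 3691 genes detected, 188574 and 188192 reads, 1.38% and 1.46% mitochondrial reads and 9.69% and 10.2% reads of ribosomal protein genes. The 984 members together held 216983839 reads and their partners 211053038. Genes were compared by their pooled rpm when at least 10% of the cells of 1 side had a read, and a log2 ratio of members to partners of 1 or more, or of -1 or less, was called higher or lower. Of 9248 genes compared, 77 (0.833%) were 2-fold or more higher in members, *BMP2* included, and 236 (2.55%) were 2-fold or more lower. The ratio had the same sign under each of the 4 tags for 47 (0.508%) and 162 (1.75%) of them. The median log2 ratio of all genes was -0.05, and 1007 genes (10.9%) were above 0 and 1330 genes (14.4%) below 0 under each of the 4 tags. These percentages and this median are the background for the lists that follow.

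The plot of pooled levels shows most genes near the line of equal level. Counting error was small against these ratios, for example *MMP3* at 15873 rpm (95% CI 15856 to 15890.0, exact Poisson) in members and 7684 rpm (7672 to 7696) in partners. Reads were counted without molecular identifiers, so all intervals cover counting error only and are too narrow for molecules or animals. Many genes stood at a few rpm in most cells and at far higher levels in a minority, and their pooled level rested on that minority. For these genes the share of cells at 100 rpm or more, a limit chosen after the data were seen, is given beside the pooled level. Shares of cells with a single read were not used for this, since *PTPRC*, the leukocyte antigen CD45, had a read in 10.47% of members and 8.64% of partners but reached 100 rpm in 0% and 0.102%.

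**Figure D2:**
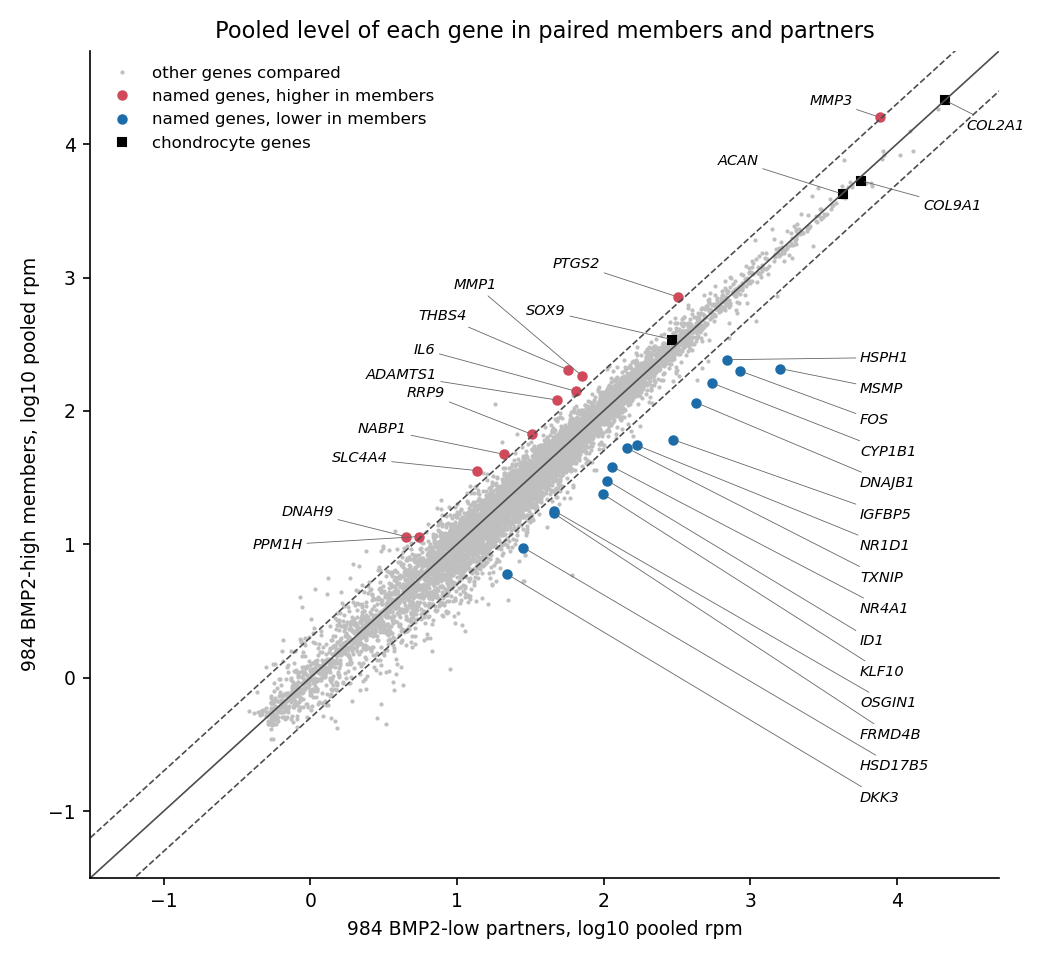
Pooled rpm of each gene in 984 BMP2-high members against 984 BMP2-low partners, both as log10, for the genes compared except *BMP2* and those at 0 on 1 side. The solid line marks equal levels and the dashed lines 2-fold. *MMP3* lies at the upper dashed line at a high level, the chondrocyte genes lie on the line of equal level, and the named lower genes lie between 22 rpm (*DKK3*) and 1606 rpm (*MSMP*) in partners.

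The chondrocyte part of the name rested on *COL2A1*, *ACAN* and the other cartilage collagens, which stood at nearly the same level on both sides. Some other matrix genes, given below, differed. *COL2A1*, the main fibrillar collagen of cartilage, held 21651, 23839, 21266 and 19703 rpm in members under the 4 tags (in the order A951, A952, A953 and A954, as in all lists of 4 values) and 23165, 24302, 20270.5 and 19765 rpm in partners, a log2 ratio of -0.01. *ACAN*, the core protein of aggrecan, held 4502, 4426, 3967 and 4132 rpm against 4749.8, 5116, 3386 and 4112 rpm (-0.01). Every member reached 100 rpm of *COL2A1*, and for both genes the tags differed more than the pooled sides. The ratio was -0.09 for *COL9A1* and 0.23 for *SOX9*, the master transcription factor of chondrocytes, which reached 100 rpm in the same number of cells on both sides (473). None of the 6 cartilage collagens compared was past 2-fold in either direction, with a median log2 ratio of 0.02. *COMP* and *COL9A3* were not among the genes counted.

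Of the 3 further genes given as marks of these cells, none was 2-fold higher in members. *FBLN7*, a fibulin of the extracellular matrix, held 2234, 2046, 1765 and 1799 rpm in members and 1676, 1483, 1259 and 1409.6 rpm in partners, and was higher in members under each tag with a log2 ratio of 0.42. *CPXM1*, a secreted protein of the carboxypeptidase family, held 1348, 1340.5, 1495 and 1091 rpm against 1187, 1157, 1101 and 861 rpm (0.30), also higher under each tag. *COL14A1*, a collagen that associates with fibrils, held 745, 772, 682 and 654 rpm against 778, 696, 424 and 644 rpm (0.15), with the members of A951 below their partners and those of A953 well above. Over bands of *BMP2* (0, above 0 to below 100, 100 to below 300, 300 to below 1000, 1000 to below 3000, and 3000 rpm or more, with 527, 1041, 538, 824, 704 and 285 cells), *CPXM1* stood at 1161, 1010.1, 924, 921, 1164 and 1549.8 rpm. It was lowest in the middle bands and highest in the last one, so the cells with no *BMP2* read were not the lowest. The name BMP2-high therefore describes the limit itself, and none of these 3 genes marked the members off by 2-fold from BMP2-low cells within the *KRT19* and *CILP* limits. They were not compared with notochordal cells, and without the *CILP* limit their median log2 ratio was 0.45, against 0.30 with it.

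The list of BMP and GDF ligands held 16 genes, *BMP2* included, and 6 genes besides *BMP2* could be compared. None of these 6 was 2-fold higher and 1 was lower. Their median log2 ratio was 0.36, but 0.077 without A953 and 0.082 with cells thinned to 50000 reads. Without a limit on the share of cells it was -0.41. *INHBA*, the activin A subunit, was the one with the highest level and held 7259, 6360.2, 8271 and 8052 rpm in members against 4419.8, 4422, 4829 and 4076 rpm in partners, higher under each tag (log2 ratio 0.80). Its median per cell was 2931 rpm in members and 836 rpm in partners, and it reached 100 rpm in 81.1% (95% CI 78.5 to 83.5) of members and 74.5% (71.6 to 77.2) of partners. *BMP6* held 101 rpm against 93.8 rpm, and *GDF10* 95.5 rpm against 127 rpm. The lower gene, *BMP4*, stood at only 2.26 and 4.52 rpm, and its sign depended on the limits set for *BMP2*. Among receptors and receptor SMADs, 12 of 15 genes were compared, 1 was higher, none was lower and the median was 0.19. *BMPR2*, the type II receptor for BMP ligands, held 256, 240.3, 264 and 161 rpm in members and 186, 168, 130.5 and 135 rpm in partners, higher under each tag with a log2 ratio of 0.54. It reached 100 rpm in 46.1% (95% CI 43 to 49.3) of members and 31.7% (28.8 to 34.7) of partners, and the members held the larger share under each tag. The type I receptor *BMPR1A* was on the other side, at 24.4 rpm against 34.1 rpm (-0.49). The gene past 2-fold, *BMPR1B*, held 2.36 rpm against 1.05 rpm, and its ratio was 0.23 once the 1% of cells with the most *BMPR1B* on each side were left out.

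Of 20 listed secreted antagonists and intracellular inhibitors 14 were compared, none was higher, 1 was lower, 8 were below 0 and none was above 0 under each of the 4 tags (14.4% and 10.9% of all genes), and the median log2 ratio was -0.27. *CHRD*, chordin, held 15.1, 11, 7.94 and 14.5 rpm in members and 41.4, 30.4, 26.4 and 25.3 rpm in partners (-1.26). *BMPER*, a chordin-like binding protein, held 31.8, 29.3, 91.5 and 23.9 rpm against 65.5, 57.4, 174 and 38.7 rpm (-0.90), and *TWSG1*, which acts with chordin, 50.5 rpm against 72.8 rpm (-0.53). All 3 were lower in members under each tag, but *CHRD* reached 100 rpm in only 3.05% of members and 5.69% of partners. *GREM1*, gremlin, had 188 rpm against 177 rpm (0.08) with mixed signs over the tags. *NOG* and *SMAD6* were not among the genes counted.

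The *ID* genes, which encode inhibitors of bHLH transcription factors and are the best known targets of BMP signaling, went in opposite directions. *ID1* held 24.6, 21.1, 31.6 and 36.8 rpm in members and 109, 130.1, 138 and 72.9 rpm in partners, a log2 ratio of -1.82, and reached 100 rpm in 3.15% (95% CI 2.15 to 4.44) of members and 12.3% (10.3 to 14.5) of partners. *ID3* held 10.2, 9.6, 25.5 and 33.1 rpm against 46.7, 70.6, 52 and 50.9 rpm (-1.29), and *ID4* 36.1 rpm against 64.3 rpm (-0.83). All 3 were lower in members under each tag. *ID2* held 1878, 2266, 2406 and 2477 rpm against 1343, 1274, 1530.5 and 1421 rpm (0.71), higher in members under each tag. The share of cells with *ID2* at 100 rpm or more was 59.9% of members and 59.96% of partners, so the difference lay in how high the *ID2* of positive cells was. Over the whole list of 16 response genes, 10 were compared, 0 were higher and 3 lower (*ID1*, *ID3* and *DLX5*), with a median of -0.13.

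Proteases of the matrix held the most abundant gene that differed. *MMP3*, stromelysin 1, which cleaves proteoglycans and activates other metalloproteinases, held 18000.5, 16268, 13043 and 16229 rpm in members and 8155, 9201, 5386 and 8063 rpm in partners, or a log2 ratio of 1.05. Members stood above their partners under each tag, and every tag of members lay above every tag of partners. The median per cell was 8119.9 rpm in members and 1507 rpm in partners, and the member was the higher cell in 643 pairs and lower in 341. *MMP3* reached 100 rpm in nearly all cells of both sides (99.7% and 99.2%), so the difference was one of level. *MMP1*, interstitial collagenase, held 71.5, 161, 418 and 109 rpm against 18.2, 152, 48.7 and 75.7 rpm (1.34), with nearly equal levels under A952. It reached 100 rpm in 4.17% (95% CI 3.01 to 5.61) of members and 2.13% (1.33 to 3.24) of partners, with a log2 ratio of 2.57 without the 1% of cells with the most *MMP1*. *ADAMTS1*, an aggrecan- and versican-degrading protease, held 207, 125, 90.3 and 88.5 rpm against 87.4, 16, 29.6 and 53.8 rpm (1.32) and reached 100 rpm in 9.96% and 6.5% of cells. These were the 3 of 22 compared proteases past 2-fold; none was 2-fold lower, and the median of the list was 0.12. *ADAMTS3* (0.85), *MMP2* (0.33) and *HTRA1* (0.12) were above 0, and *CTSK*, cathepsin K (-0.68), below 0 under each tag. *MMP13* was counted in too few cells to be compared.

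The inhibitors of these proteases differed less, with none of 10 compared genes past 2-fold and a median of 0.09. *SERPINE2*, protease nexin 1, held 591, 941, 662 and 772 rpm in members and 576, 449.6, 286 and 581 rpm in partners (0.60) and reached 100 rpm in 58.2% (95% CI 55.1 to 61.3) of members and 42.3% (39.2 to 45.4) of partners. Its levels were nearly equal under A951 and apart under A952 and A953. *TIMP3* held 1366 rpm against 1102 rpm (0.31) and *TIMP1* 503 rpm against 501 rpm (0.01).

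**Figure D3:**
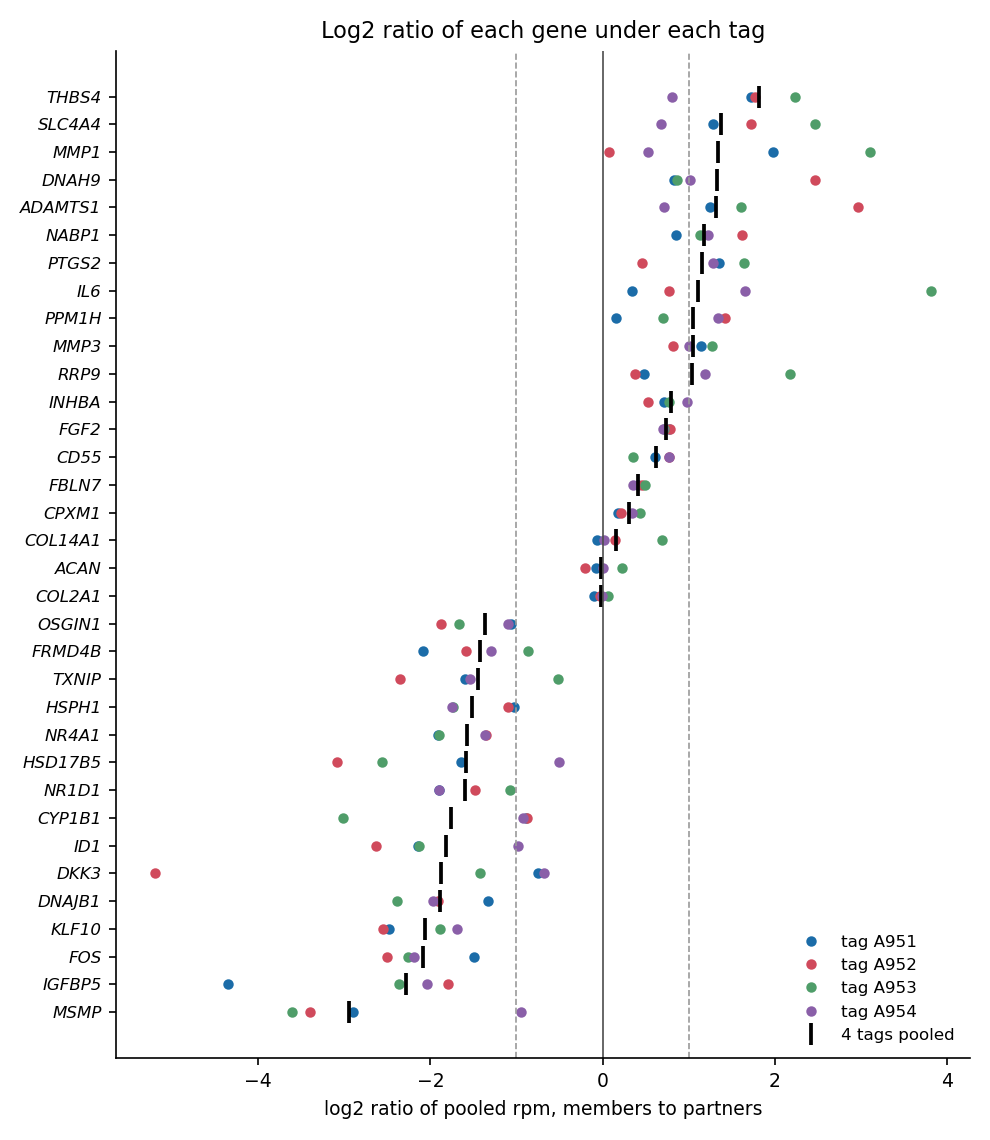
Log2 ratio of pooled rpm, members to partners, under each tag (points) and over the 4 tags (black bars) for the named higher genes, 8 genes described in the text and the named lower genes. Dashed lines mark 2-fold. The named higher and lower genes were chosen for the same sign under each tag. *FGF2* and *FBLN7* have closely grouped points, *COL2A1* lies near 0, and *IL6*, *DKK3* and *CYP1B1* each have 1 tag far from the others.

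Inflammatory genes were the list with the highest median among those with 10 or more genes compared, at 0.58 over 14 genes. Of these, 3 were 2-fold higher, 0 lower and 8 above 0 under each tag (10.9% of all genes). With partners at 100 to below 1000 rpm of *BMP2*, the median of this list was 0.12. *PTGS2*, cyclooxygenase 2, held 854, 608, 351 and 918 rpm in members and 335, 443, 112 and 378 rpm in partners (1.16). It was higher in members under each tag, and the share of cells at 100 rpm or more was 26% (95% CI 23.3 to 28.9) in members and 18.9% (16.5 to 21.5) in partners. *NOS2*, inducible nitric oxide synthase, held 437, 462, 291 and 586 rpm against 149.8, 326, 226 and 375 rpm (0.71) and reached 100 rpm in 21% (95% CI 18.5 to 23.7) and 12.6% (10.6 to 14.8) of cells. *ICAM1*, an adhesion molecule induced by NF-κB, reached 100 rpm in 16.1% (95% CI 13.8 to 18.5) of members and 7.93% (6.32 to 9.79) of partners, a larger share of members under each tag (19, 20.1, 16 and 11.8% against 10.2, 6.03, 8.45 and 7.23%). Its pooled log2 ratio was 0.96, but below 0 under A954. *SOD2*, the mitochondrial superoxide dismutase, reached 100 rpm in 69.2% (95% CI 66.2 to 72.1) and 56% (52.8 to 59.1) of cells.

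The cytokine genes came from few cells. *IL6* held 143, 220.0, 85.3 and 133 rpm in members and 112, 129, 6.06 and 42 rpm in partners (1.11), and reached 100 rpm in 73 members (7.42%, CI 5.86 to 9.24) and 39 partners (3.96%, 2.83 to 5.38). *CCL2* reached 100 rpm in 7.22% of members and 3.86% of partners, and *CXCL8* in 5.18% and 2.44%. For these 3 genes the members of each tag had the larger share. *CXCL1* had the largest pooled ratio of the list, 2.63, yet only 12 members and 5 partners reached 100 rpm, and 1 partner cell held 89.6% of the partners' reads. Among members, the 5% of cells with the most *IL6* held 94.5% of its reads, and for *CXCL8* 99.02%. *CXCL1* and other chemokines have close copies between which the counting could split reads. The 13 blood and immune cell markers in the file, *CD68* the most abundant, summed to 18.5, 18.2, 33.4 and 29.2 rpm in members and 28.7, 18.4, 83.5 and 29.3 rpm in partners, so under no tag was this sum higher in members.

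The growth factors and surface proteins that follow were higher in members by less than 2-fold. *FGF2*, basic fibroblast growth factor, held 677, 624, 744 and 526 rpm in members and 395, 362, 454 and 322 rpm in partners, a log2 ratio of 0.74. Every tag of members lay above every tag of partners, and the ratios under the 4 tags (0.78, 0.78, 0.71 and 0.71) were close together. It reached 100 rpm in 75.9% (95% CI 73.1 to 78.6) of members and 57.3% (54.2 to 60.4) of partners. *TGFB2*, transforming growth factor β2, held 373, 361, 251 and 335 rpm against 274, 246, 124 and 213 rpm (0.63) and reached 100 rpm in 48.5% (95% CI 45.3 to 51.6) and 34% (31.1 to 37.1) of cells. *CD55*, the complement decay-accelerating factor, held 4737, 4091, 4106 and 3685 rpm against 3096, 2401, 3214 and 2162 rpm (0.62), with the member higher in 601 pairs and lower in 383. *CD44*, the hyaluronan receptor, held 334, 305, 252 and 209 rpm against 199.6, 243, 152 and 154 rpm (0.55) and reached 100 rpm in 44.3% and 29.5% of cells, while *HAS2*, hyaluronan synthase 2, had a ratio of 0.56. All of them were higher in members under each tag, and none was past 2-fold. Of 15 TGF-β genes compared, 0 were past 2-fold and the median was -0.20, with *TGFBI* (-0.86) and *TGFBR3* (-0.44) below 0 under each tag. Of 20 surface and progenitor markers compared, 0 were past 2-fold, with a median of 0.06.

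*THBS4*, thrombospondin 4, a matrix glycoprotein of tendon and cartilage, had the largest ratio of the named higher genes. It held 255, 217, 397 and 46.6 rpm in members and 77, 63.7, 84.4 and 26.6 rpm in partners, a log2 ratio of 1.82. It reached 100 rpm in 19.3% (95% CI 16.9 to 21.9) of members and 9.15% (7.42 to 11.1) of partners, in a larger share of members under each tag and least often under A954. Over the bands of *BMP2* it stood at 88.7, 58, 88.1, 81.9, 149 and 340.0 rpm. It stood between 58.0 and 88.7 rpm in the 4 bands below 1000 rpm of *BMP2*, in no order, and above them in both bands that hold the members. *THBS2* was also higher under each tag (0.98), but it was not past 2-fold, nor were *THBS1* (0.10) and *THBS3* (-0.46). The other named higher genes were *SLC4A4*, a sodium bicarbonate cotransporter (1.37), *DNAH9*, an axonemal dynein (1.33), *NABP1*, a single-stranded DNA binding protein (1.18), *PPM1H*, a phosphatase (1.05), and *RRP9*, a factor of ribosomal RNA processing (1.04). *RRP9* reached 100 rpm in 16.9% (95% CI 14.6 to 19.4) of members and 7.93% (6.32 to 9.79) of partners, and *NABP1* in 14.5% (95% CI 12.4 to 16.9) and 6.3% (4.86 to 8). *DNAH9* and *PPM1H* stood at 11.4 and 11.4 rpm in members, and *PPM1H* had a ratio of 0.24 without the 1% of cells with the most of it.

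Immediate early genes are those which cells transcribe within minutes of a stimulus or of handling. Of 19 such genes compared, 0 were higher, 5 were 2-fold lower, all 5 under each tag, and the median log2 ratio was -0.42. *FOS* held 293, 177, 136 and 199 rpm in members and 827, 1005, 648 and 908 rpm in partners (-2.09), and every tag of members lay below every tag of partners. It reached 100 rpm in 15% (95% CI 12.9 to 17.4) of members and 26.5% (23.8 to 29.4) of partners, while the medians over all cells of each side were 17.8 and 20.5 rpm. *NR4A1*, an orphan nuclear receptor, reached 100 rpm in 7.52% (95% CI 5.95 to 9.35) and 17.9% (15.5 to 20.4) of cells (-1.58), and *FOSB* in 11.6% (95% CI 9.65 to 13.8) and 23% (20.4 to 25.7) (-1.12). *JUN* held 354 rpm against 715 rpm (-1.01). Not all of the list differed this way, since *EGR1* (-0.04), *FOSL1* (-0.02) and *IER3* (-0.23) differed little and *CCN1* (0.25) and *NR4A3* (0.26) were above 0 under each tag. *KLF10*, a transcription factor induced early by TGF-β, held 16, 24.2, 22.1 and 29 rpm against 89.5, 142, 81.9 and 93.6 rpm (-2.06) and reached 100 rpm in 5.59% (95% CI 4.24 to 7.21) and 17.3% (15 to 19.8) of cells.

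Among stress genes and circadian clock genes, few were past 2-fold and those few were lower in members. Of 12 stress and chaperone genes compared, 0 were higher and 2 lower, with a median of -0.47, and *SOD2* (0.34) and *ASNS*, asparagine synthetase (0.45), were above 0 under each tag. *DNAJB1*, an HSP40 co-chaperone, held 129, 110.3, 57.4 and 146 rpm in members and 325, 416, 299.8 and 572 rpm in partners (-1.89), and *HSPH1*, a large heat shock protein, 227, 257, 161 and 293 rpm against 464, 549.8, 537 and 987 rpm (-1.51). Both were lower in members under each tag, but *HSPH1* reached 100 rpm in similar shares of cells (41.2% and 43.7%), whereas *DNAJB1* did so in 21.1% (95% CI 18.6 to 23.8) and 33.9% (31 to 37). Of 15 clock genes compared, 0 were higher and 3 lower, with a median of -0.41 and 8 genes below 0 under each tag (14.4% of all genes). *NR1D1*, the clock repressor REV-ERBα, held 41.6, 68.7, 69.5 and 47.7 rpm against 155, 191, 147 and 177 rpm (-1.60) and reached 100 rpm in 9.15% (95% CI 7.42 to 11.1) of members and 23.2% (20.6 to 25.9) of partners. *PER1*, which is also an immediate early gene and on both lists, had a ratio of -1.31, *TEF* one of -1.91 at 3.94 rpm, and *BHLHE40* one of -0.85. The core activator genes *ARNTL* (0.02) and *CLOCK* (-0.23) had mixed signs over the tags. *TXNIP*, an inhibitor of thioredoxin induced by glucose, held 40.5, 35, 74 and 55.7 rpm against 123, 178, 106 and 162 rpm (-1.44), and reached 100 rpm in 10.4% (95% CI 8.53 to 12.4) and 21.2% (18.7 to 23.9) of cells.

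**Figure D4:**
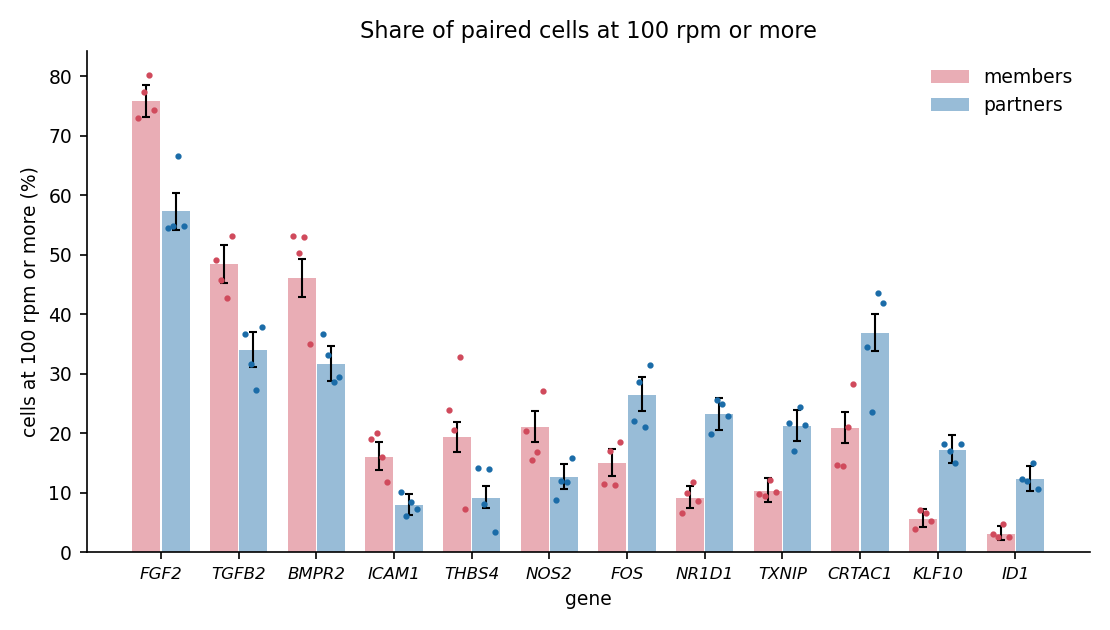
Share of 984 members and 984 partners in which a gene reached 100 rpm, with exact binomial 95% intervals (bars with whiskers) and the share under each tag (points, from left to right A951 to A954). For the 6 genes on the left the members' share is the larger under each tag, and for the 6 on the right the partners' share is.

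Of the 12 genes of superficial cartilage and fibrocartilage compared beside *CILP*, which the choice of cells had used, 0 were higher, 2 were 2-fold lower, 9 were below 0 under each tag (14.4% of all genes) and the median was -0.52. *CRTAC1*, cartilage acidic protein 1, held 87.8, 126, 234 and 373 rpm in members and 362, 224, 638 and 688 rpm in partners (-1.15). It reached 100 rpm in 20.8% (95% CI 18.3 to 23.5) of members and 36.9% (33.9 to 39.99) of partners, the widest gap of any gene with a lower share in members, and over the bands of *BMP2* it stood at 512, 553, 571, 516, 299 and 66.9 rpm. It stood between 512 and 571 rpm up to 1000 rpm of *BMP2* and was lowest in the cells with the most *BMP2*. *IGFBP6*, a binding protein of insulin-like growth factor 2, held 133, 145, 392 and 173 rpm against 232, 239, 920.3 and 439.9 rpm (-1.16). *ASPN*, asporin, held 14.2, 11.9, 98.2 and 92.3 rpm against 53.4, 30.05, 187 and 165 rpm (-0.96), with A953 and A954 above the other tags on both sides. *PRG4*, lubricin, held 8997, 7659, 11781 and 7808 rpm against 13907, 14188, 17604 and 8907 rpm (-0.53), and *CD44*, given above, was the only gene of the list above 0 under each tag. The small leucine-rich proteoglycans *FMOD* (-0.38), *OGN* (-0.36) and *PRELP* (-0.32) were below 0 under each tag while *BGN* (0.03) was not, and 0 of 9 compared were past 2-fold (median -0.32). *MGP*, matrix Gla protein, an inhibitor of calcification, held 3929.8, 3608, 7060.2 and 4652 rpm in members and 4855, 5387, 10669 and 6189 rpm in partners (-0.48).

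Type I collagen was lower in members, whereas type II collagen was not. *COL1A1* held 397, 604, 370.2 and 521 rpm in members and 1989.7, 1317, 658 and 749 rpm in partners (-1.20), and *COL1A2* 588, 942, 924 and 582 rpm against 2241, 1789, 1676 and 900.3 rpm (-1.07). The gap was widest under A951 for both genes. *COL1A1* reached 100 rpm in 7.42% (95% CI 5.86 to 9.24) of members and 12.2% (10.2 to 14.4) of partners, and 1 member held 14.7% of the members' reads of it. Of 28 fibrous and pericellular genes compared, 1 was higher (*THBS4*) and 2 lower (these), with a median of -0.13. *COL3A1* had a ratio of -0.35 and *FN1*, fibronectin, one of 0.10.

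Of 5 listed binding proteins of insulin-like growth factors that could be compared, *IGFBP4*, *IGFBP5*, *IGFBP6* and *IGFBP7* were lower in members under each tag. *IGFBP5* held 8.34, 87.1, 123 and 38.8 rpm in members and 169.6, 302, 635 and 159 rpm in partners (-2.29), and reached 100 rpm in 3.86% (95% CI 2.75 to 5.26) and 11.2% (9.28 to 13.3) of cells. Over the bands of *BMP2* it stood at 333, 282, 218, 84.6, 76.2 and 15.5 rpm. *IGFBP7* held 452 rpm against 715 rpm (-0.66), while *IGFBP3* (0.41) was above 0 under each tag. *IGFBP2* was read in too few cells to be compared. Of 13 FGF and IGF genes compared, 0 were higher and 3 lower (*IGFBP5*, *IGFBP6* and *IGFBP4*), with a median of -0.10. Some named lower genes rested on few cells. *MSMP*, a secreted microseminoprotein, held 125, 108, 377 and 200.01 rpm against 932, 1132, 4593 and 386 rpm (-2.95) but reached 100 rpm in 8.94% of members and 9.04% of partners, so only the level in positive cells differed, most of all under A953. Its ratio was -1.59 without the 1% of cells with the most *MSMP*, and 1 partner held 18.6% of the partners' reads. *CYP1B1*, a cytochrome P450, held 130.1, 109, 172 and 201 rpm against 241, 200.3, 1387 and 379.8 rpm (-1.76), and the partners of A953 stood apart. *DKK3*, of the dickkopf family (-1.88), *HSD17B5* (the file's symbol for an enzyme of a family with near-identical copies, -1.59), *FRMD4B*, a FERM domain scaffold (-1.42), and *OSGIN1*, an oxidative stress gene (-1.37), all stood below 20 rpm in members.

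Hedgehog and hypoxia signaling were a question of the study, and neither list was higher in members. The study set its clusters with inferred hedgehog input against those without, and measured HIF-1α protein in cultured mouse chondrocytes. Members and partners were not assigned to those clusters, so theirs is a different contrast and does not address the study's question. Of 9 hedgehog genes compared, 0 were past 2-fold, 2 were below 0 under each tag (14.4% of all genes) and the median was -0.18. *GLI1*, the transcription factor induced by hedgehog signals, held 6.64, 9.16, 8.04 and 8.12 rpm in members and 13.1, 11.8, 14 and 15.2 rpm in partners (-0.80), and reached 100 rpm in 6 members and 18 partners. *SMO*, the signal transducer, held 44.2 rpm against 58.2 rpm (-0.40), and *PTCH1* 9.15 rpm against 10.4 rpm with mixed signs. *SHH*, *IHH* and *DHH* were read in too few cells to be compared. Of 21 hypoxia genes compared, 0 were higher and 3 lower, with a median of -0.18. *HIF1A* held 762 rpm against 694 rpm (0.14) and was above 0 under each tag. Among its targets, *CA9*, carbonic anhydrase 9, was lower under each tag (-0.83), and *ANKRD37* (-2.55) and *PFKFB4* (-2.40) were lower at 3.8 and 5.35 rpm in members. The glycolytic targets *PGK1* (-0.18) and *LDHA* (-0.18) differed little, and *SLC2A1*, a glucose transporter (0.18), was above 0 under each tag. The gene listed as simVEGF165, the file's symbol for a vascular endothelial growth factor transcript, held 1107, 1237, 766 and 963 rpm against 854, 861, 519.8 and 762 rpm (0.42), with *VEGFA* not among the genes counted.

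Other pathways of cartilage differed little. Chondrocyte transcription factors gave 0 of 9 past 2-fold (median -0.15), with *SOX5* (-0.30) and *ERG* (-0.29) below 0 under each tag. Genes of hypertrophy and mineralization gave 0 of 7 (median -0.06), with *COL10A1*, *IHH* and *ALPL* read in too few cells, and inhibitors of mineralization 0 of 6 (median -0.03). Cartilage proteoglycans and matrilins gave 1 lower of 10 (*MATN4*, -1.62, at 13.5 rpm; median -0.13), while *HAPLN1*, the link protein, was above 0 under each tag (0.29). WNT genes gave 1 lower of 12 (*DKK3*; median -0.11), with *FRZB* (0.16) above 0 under each tag, and Notch genes 1 lower of 5 (*HES1*, -1.80; median -0.06). *HES1*, a target of Notch, reached 100 rpm in 1.63% of members and 4.47% of partners.

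Of 8 marker lists of other cell types, none summed to more in members than in partners over the 4 tags together, but under single tags some did. The 9 notochordal markers in the file summed to 114, 139, 195 and 151 rpm in members and 107, 532, 101 and 125 rpm in partners, higher in members under A951, A953 and A954, with *APOE* the most abundant. The high sum of the A952 partners came with *C3orf49* (51.3 rpm) and *TBXT* (13.1 rpm, against 0.612 rpm in members), and 1 partner cell held 50.1% of the partners' *C3orf49* reads. The 10 endothelial markers summed to 136 rpm in members and 165 rpm in partners, nearly all of it *ERG*, while *PECAM1* and *CDH5* stood at 0.29 and 0.18 rpm and reached 100 rpm in no member. The 13 blood and immune markers summed to 25.9 and 39.5 rpm, mostly *CD68*, with *PTPRC* at 0.507 rpm in members and 0.952 rpm in partners. Osteoblast markers summed to 1063 and 1508 rpm, mainly *SPP1* and *COL1A1*, with *SP7* at 0.0553 rpm, and were higher in members under A953 (1352 against 951.1 rpm). Tendon markers summed to 6618 and 9447 rpm, mainly *FMOD*, with *TNMD* at 0.544 rpm. Pericyte markers summed to 162 and 182 rpm, with *TAGLN* the most abundant and *ACTA2* at 2.23 rpm, and were higher in members under A953 and A954 (165 and 186 against 135 and 157 rpm). Fibroblast markers summed to 17543 and 23826 rpm, nearly all *PRG4* and *CLU*, which chondrocytes also express, and *PI16* had no read. Adipocyte markers summed to 88.6 and 104 rpm, mainly *LPL*, and were higher in members under A953 (122 against 116 rpm).

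Members differed among themselves, and their differences followed *BMP2* only weakly. Within the 989 members the rank correlation of *BMP2* with *MMP3* was 0.04 and with *FGF2* 0.07, while it was 0.18 with *CPXM1*, 0.17 with *FBLN7* and -0.16 with *PRG4*. The strongest relation among the 20 genes examined was that of *INHBA* with *PRG4* (0.48), followed by *PRG4* with *CD55* (0.36), *PRG4* with *SERPINE2* (-0.36), *ACAN* with *COL2A1* (0.30) and *INHBA* with *CD55* (0.29). Members rich in *PRG4* thus tended to hold more *INHBA* and *CD55* and less *SERPINE2*, although *INHBA*, *CD55* and *SERPINE2* were all higher in members and *PRG4* lower. The correlation of *CPXM1* was -0.26 with *PRG4* and -0.22 with *INHBA*. The cells share 1 library and 4 tags, and these values are descriptions. *MMP3* ranged in members from 181 rpm at the 10th percentile to 40668 rpm at the 90th, and *COL2A1* from 4469.7 to 38704 rpm.

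Over the 6 bands of *BMP2*, several genes differed by degrees and not at the limit of 1000 rpm alone. *MMP3* stood at 7087, 7542, 9178, 11479.6, 15378 and 17276 rpm, higher in each band than in the one before. *FGF2* stood at 394, 372, 440.4, 479, 598 and 689.5 rpm and *CD55* at 2699, 2518, 3381, 3432, 3959 and 4289 rpm. *INHBA* reached its highest level in the 1000 to below 3000 rpm band (4735, 3938, 5959, 7347, 8240.4 and 6663 rpm). On the other side, *FOS* stood at 978, 878, 409, 522, 225 and 132 rpm and *ID1* at 98.8, 105, 64.2, 57.4, 38.6 and 5.58 rpm. *TXNIP* was lower in each band than in the one before, with 1 near tie (254, 148, 88, 87.9, 54.4 and 45 rpm). *COL2A1* stood between 19109 and 22193 rpm in all 6 bands. Among inflammatory genes, *NOS2* was highest in the 300 to below 1000 rpm band (326, 282, 458, 556, 517 and 373 rpm). *IL6* stood at 115, 59.3, 59.1, 131, 120 and 192 rpm, and *PTGS2* at 337, 317, 300, 562, 699 and 722 rpm. The bands were not paired, and their median number of reads was 108211 in cells without a *BMP2* read and between 182459 and 227917 in the others.

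**Figure D5:**
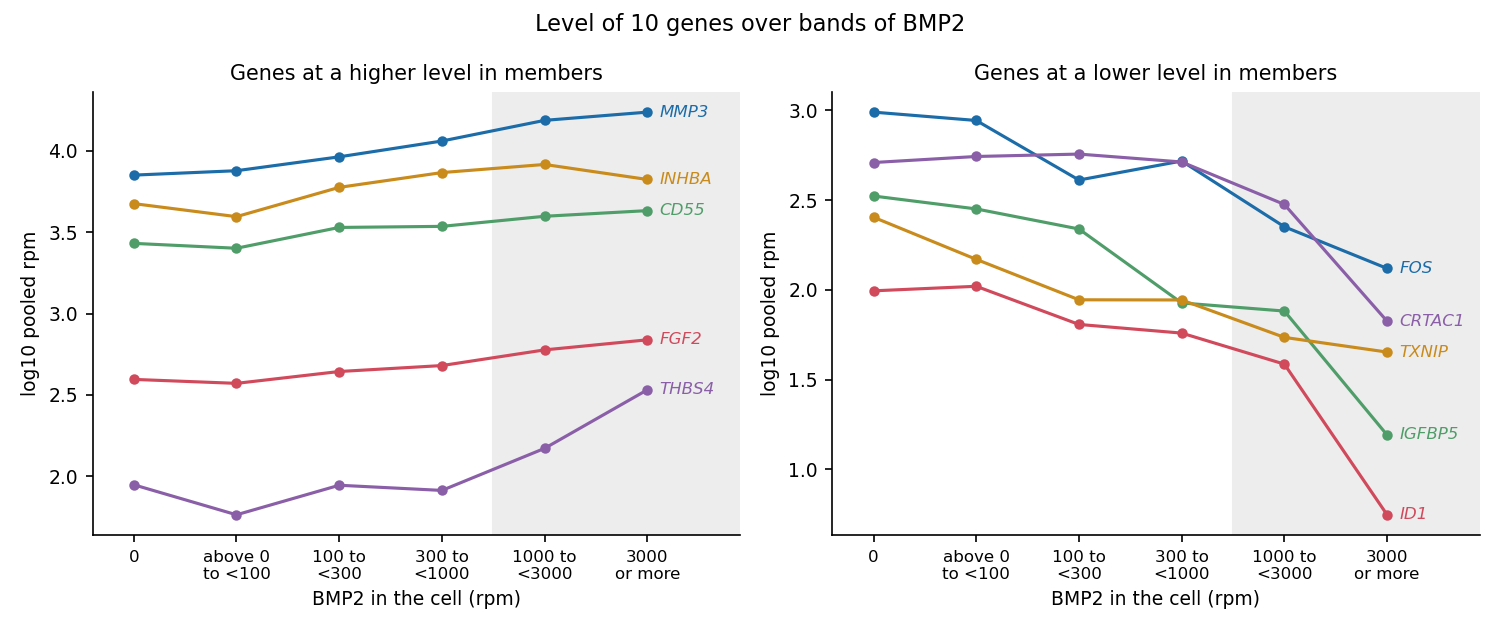
Pooled rpm, as log10, of 5 genes higher (left) and 5 genes lower (right) in members over 6 bands of *BMP2* in the 3919 cells within the limits. The shaded bands hold the members. *MMP3* was higher and *TXNIP* lower in each successive band, while before the shaded bands *CRTAC1* stood between 512 and 571 rpm and *THBS4* between 58.0 and 88.7 rpm.

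The genes whose level was most like that of *BMP2* were found by rank correlation over all 3919 cells, with each gene ranked within 10 bins of genes detected. Among 5724 genes, *BMP2* aside, in at least 25% of the cells the median was 0.00, the 1st and 99th percentiles were -0.08 and 0.11, and the highest value was only 0.23. It belonged to *ERRFI1*, a feedback inhibitor of the EGF receptor, followed by *MMP3* (0.20), *FGF2* (0.19), *DDX21*, an RNA helicase of ribosome synthesis (0.19), and *PELI1*, a ubiquitin ligase of innate immune signaling (0.18). *MAP4K4* (0.17), *CD55* (0.17), *HBEGF*, an EGF receptor ligand (0.16), *SLC39A14*, a zinc transporter (0.16), and *LRRFIP1* (0.16) completed the 10. All 10 values were above 0 under each tag. *ERRFI1* held 4443, 4579, 4440.4 and 4934 rpm in members and 3103, 2819.8, 2337 and 3221 rpm in partners (0.67), with a median per cell of 3583 against 1629 rpm. *HBEGF* held 1867, 1707, 906 and 2644 rpm against 1241, 1064, 537 and 1327 rpm (0.82) and reached 100 rpm in 70.5% (95% CI 67.6 to 73.4) of members and 53.5% (50.3 to 56.6) of partners. *DDX21* reached 100 rpm in 73.6% (95% CI 70.7 to 76.3) and 54.6% (51.4 to 57.7) of cells, the widest gap of any gene with a higher share in members. These 10 genes were thus expressed in many of the partners too, and correlations of this size do not tie a gene to *BMP2* in single cells.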

How the data were processed

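Cells were captured and amplified by TAS-seq. The authors deposited raw read counts per gene and cell, made by counting reads over gene bodies with multi-mapping reads allowed and without molecular identifiers. The submitters' processing notes name HISAT2 2.2.1 and featureCounts 2.0.2, and the genome build of the counts is not given in the sources used here. The library held 5723 cells, 21371 genes (17688 with a read) and 1354369622 reads on genes. Of these cells, 5674 had 1 tag, 42 were marked as doublets and 7 had no tag, and the last 49 were left out. No other doublet caller was run. Paired members and partners had medians of 188574 and 188192 reads, and 32.2% of all counts above 0 were single reads. A second deposited matrix (1358 columns) was not used, and 15 of its cell numbers recur in the library used here.

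Reads per 1000000 reads (rpm) were computed from a cell's total reads. Cells with 5 or more reads of *KRT19* (363) or, of the rest, *CILP* at 100 rpm or more (1392) were left out. Members (*BMP2* at 1000 rpm or more) were paired without replacement, within a tag, with cells below 100 rpm whose number of genes detected was nearest and within 5%. Counts were summed over each side and scaled to rpm, and log2 ratios were taken for genes with a read in 10% or more of either side's cells. There was 1 library, so no test was made. Binomial (Clopper-Pearson) and Poisson intervals are exact, at 95%. Genes were named if past 2-fold, with the same sign under each tag, and, on 1 side, a read in 25% or more of cells and a level of 10 rpm or more; 11 higher and 41 lower genes qualified beside *BMP2*, and all 11 and the 15 with the lowest ratios are given, with genes of 38 lists (575 genes, 81 of them not in the file) that were past 2-fold or of high level. Other genes of these lists, and the pairs of genes set against each other within members, were chosen after their values were seen. Genes most like *BMP2* were the 10 with the highest rank correlation. The members and the lists were chosen with earlier results of these data known. The ratios were tested on simulated data, and the pairing was checked on the cells themselves. Alternatives varied the limits for *BMP2*, *CILP* and detection, cell quality, the pairing, the depth (thinning to 50000 reads), the mean of the cells' rpm in place of pooled reads, and the tags left out in turn, and 3 more were chosen after seeing the data (without the 1% of cells with most reads of a gene, partners at 100 to below 1000 rpm, and cells at 100 rpm or more as the detection limit). Python 3.11.15, numpy 2.4.6, scipy 1.17.1, pandas 2.3.3 and matplotlib 3.10.9 were used.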

Additional observations from a re-analysis of the deposited data

Results flagged for a closer look

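The ratios of 3 genes stood apart under 1 of the 4 tags by Dixon's criterion for outliers. This criterion sets the gap to the nearest other tag against the range over the 4 tags. The log2 ratio of *DNAH9* was 0.83, 2.46, 0.87 and 1.02 under A951, A952, A953 and A954, with A952 apart (2.46). That of *DKK3* was -0.75, -5.20, -1.42 and -0.68, with A952 apart (-5.20), where members held 1.54 rpm and partners 56.6 rpm. That of *CYP1B1* was -0.89, -0.87, -3.01 and -0.92, with A953 apart (-3.01), where partners held 1387 rpm. These were 3 of 31 results examined over the 4 tags. Chance alone can set a tag apart in this way, and how often it does so was not tested.

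Cells marked as doublets were in no comparison. *BMP2* reached 1000 rpm in 13 of 42 of them (31.0%, 95% CI 17.6 to 47.1, exact binomial interval), beside 20.5% of all 5674 tagged cells (1165 cells, 19.5 to 21.6), neither of them limited by *KRT19* or *CILP*.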

How the results depend on the processing

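Of 684 list medians over the 18 alternatives, 667 stayed within the interval over the list's genes. For lists with few genes compared, this interval ran from the lowest to the highest ratio, as for Notch genes (-1.80 to 0.36). Staying within it is then a weak mark of stability. Some of these 667 still moved far or changed sign. Notch genes gave -1.18 with partners without a *BMP2* read and 0.33 without the top 1% of cells. With partners at 100 to below 1000 rpm, BMP response genes gave 0.13, BMP antagonists -0.041 and hypoxia genes 0.001. Proliferation genes gave -0.85 with members from 2000 rpm. Of 52 named genes past 2-fold, *BMP2* among them, between 49 and 52 kept their direction under each alternative. Part of this was fixed in advance. The named higher and lower genes had been chosen for the same sign under each tag, and *BMP2* had set the 2 sides. The limits on the share of cells do not enter a gene's ratio. The counts of genes past 2-fold moved as well. The 77 higher genes became 38 with members from 500 rpm of *BMP2*, 189 with members from 2000 rpm, 218 with partners without a *BMP2* read (406 pairs), 640 without a limit on the share of cells, 18 with a limit of 25% of cells, and 20 with cells thinned to 50000 reads. The 236 lower genes became 147, 482, 433, 1350, 49 and 91 in the same order, 362 without the 1% of cells with the most of each gene (where the higher genes became 110, with 44 of the 77 higher and 171 of the 236 lower genes still past 2-fold), and 109 with partners at 100 to below 1000 rpm of *BMP2*. Leaving out a tag gave 94 to 128 higher and 267 to 366 lower genes, the most without A954, which leaves 638 pairs. With partners at 100 to below 1000 rpm, 18 of the 52 named genes were still past 2-fold in the same direction, and with thinned cells 43 were.

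The lists that follow had medians that moved out of that interval. BMP receptors gave 0.074 with members from 500 rpm, 0.083 with partners without a *BMP2* read and 0.058 with partners at 100 to below 1000 rpm. With partners without a *BMP2* read, cartilage collagens gave -0.14 and collagen processing -0.22. With members from 2000 rpm, chondrocyte transcription factors gave -0.32 and pericyte markers -0.50. Endothelial markers gave -0.34 with thinned cells. The median of notochordal markers was -0.18 without the top 1% of cells, 0.14 with partners at 100 to below 1000 rpm and -0.90 to 0.14 with a tag left out (highest without A952), and that of blood and immune markers -0.97 to 0.093 with a tag left out (highest without A953). Adipocyte markers, of which 2 genes were compared, gave -0.38 with partners without a *BMP2* read, -0.36 without a limit on the share of cells and -0.23 with thinned cells. *CPXM1*, *FBLN7* and *COL14A1* gave 0.46 with members from 2000 rpm and 0.45 without the *CILP* limit. Ratios that changed sign were those of *PPM1H* (-0.31), *BMP4* (1.16) and *PPARG* (-0.083) with partners without a *BMP2* read, *BMP4* (0.087) with members from 2000 rpm, *PPARG* (-0.081) without the top 1% of cells, *BMPR1B* (-0.14) and *C3orf49* (0.017) with partners at 100 to below 1000 rpm, and *C3orf49* (0.14) without A952, where tags left out in turn gave -2.92 to 0.14. Fewer genes pass the 25% limit and fewer reads the thinning by construction, and the cause of the other shifts was not tested.

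No paired analysis was possible because there was 1 library without replicate numbers. Members and partners were compared under each tag, but no source used here says that the tags are replicates, and the pairs match cells on depth. Depth limits genes below about 10 rpm, which have few reads per cell, and the pooled level of some of them rests on few cells. For the thinning, 24 members and 113 BMP2-low cells were too shallow. No source used here pairs the tags with animals or tissues.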

Other observations

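Over all genes compared, 70 reached 100 rpm in a share of members at least 10 percentage points above that of partners, and 13 in a share at least 10 points below, with a median difference of 0 points. The genes that follow were chosen from these after their values were seen. Among those with the larger share in members, beside *DDX21*, *RSL1D1*, a nucleolar protein, reached 100 rpm in 59.8% and 44.1% of members and partners, *WDR43*, of the small subunit processome, in 57.4% and 42.6%, and *PA2G4*, a growth regulator of the nucleolus, in 68.2% and 53.8%. *PDE4B*, a phosphodiesterase that degrades cyclic AMP, did so in 57.1% and 39.5%, and *RBP4*, retinol binding protein 4, in 85.2% and 71.2%. Among those with the smaller share in members, *GADD45B*, a stress-induced growth arrest gene, reached 100 rpm in 14.3% and 27.7%, *PID1*, an adaptor protein, in 30.5% and 44.2%, *MIDN*, midnolin, in 13.9% and 25.8%, and *LSP1*, an actin-binding protein, in 13.4% and 23.7%.

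For 5 of the inflammatory genes (*IL6*, *CXCL1*, *CXCL8*, *CCL2* and *PTGS2*), the number with 5 or more reads in a cell was counted. None had them in 55.8% of members and 64.1% of partners, and 1 did in 30.8% and 29.9%. Cells with 2 made up 9.45% and 4.78%, and cells with 3 made up 2.95% and 1.02%. *PTGS2* had 5 or more reads in 33.9% of members and 28.8% of partners, and *IL6* in 10.1% and 5.08%. *NOS2*, *ICAM1* and *SOD2* were not in this count. Within members *NOS2* had a rank correlation of 0.26 with *MMP3*, and *FBLN7* one of -0.24 with *INHBA*.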
